A study of Mus musculus with 8 samples.

Results

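The genes described here copy DNA in S phase and carry a cell through mitosis. They were 54 listed mouse genes, 23 of the S-phase programme and 31 of the mitotic programme, found by symbol among the 53801 genes of the count table, and all 54 had a row. They were read in 8 RNA-seq libraries of small intestinal Paneth cells, the secretory cells at the crypt base that make antimicrobial peptides, sorted as viable EpCAM+ Cd24+ cells 10 days after induction. By the series' design text all 8 mice carried a stabilized β-catenin (β-catGOF), a gain of function of the Wnt pathway made by deleting exon 3 of the β-catenin gene. The 4 control libraries were β-catGOF; Mll1+/- and the 4 knockout libraries β-catGOF; Mll1-/-; the labels of the single samples, and the methods on the sort, give the Mll1 genotype alone. Mll1, whose gene symbol is Kmt2a, is a histone H3 lysine 4 methyltransferase. Recombination in every mouse was induced by tamoxifen (3 injections of 1 mg) through the Lgr5-EGFP-IRES-CreERT2 allele, so the Cre acted in Lgr5+ stem cells and in a mosaic of crypts. Per the study's methods the 2 Mll1 genotypes were littermates, but the labels do not give the litters. Per the study's methods the mice were 4 to 6 wk old at induction and both sexes were used over the whole study. The sex of these 8 mice is not given there. The question put to these genes was whether the loss of Mll1 changed their level in Paneth cells with active β-catenin.

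Paneth cells are long-lived and are known as non-dividing cells, whereas the Lgr5+ stem cells between them divide often. In a dividing cell the replication genes are switched on late in G1, when E2F transcription factors are freed from the retinoblastoma protein. Origins are licensed by loading the MCM helicase, the helicase is then activated by Cdc45 and the GINS complex, and the forks are fed by nucleotide synthesis. The mitotic genes come up later, in G2, through the MuvB complex with B-Myb and FoxM1, which reads a short promoter element named CHR (cell cycle genes homology region), often beside a CCAAT box bound by NF-Y. In bulk libraries a different number of dividing cells and a different amount of RNA per cell cannot be told apart.

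The promoters of the 2 lists overlapped in their motifs but held them in different shares, a difference that was not tested. They were read from RefSeq (build GRCm38.p6), from 250 bases before to 50 after each annotated start, on both strands. 19 of the 23 S-phase genes and 25 of the 31 mitotic genes had an entry. A gene with several annotated starts was counted when any of its windows held a match. An E2F core (TTTGGCGC, TTTCCCGC, TTTCGCGC or TTTGCCGC) stood in 10 of the 19 S-phase genes (52.6%) and in 1 of the 25 mitotic genes (4%, Cdk1). Of the 27025 genes with a promoter entry 2.6% held one. A CHR (TTTGAA or TTTAAA) stood in 42.1% of these S-phase genes and in 22 of these 25 mitotic genes (88%). Among all genes with an entry the share was 30.6%. A CCAAT box (CCAAT) stood in 63.2%, 84% and 41.1%, and a CHR together with a CCAAT box in 36.8%, 80% and 12.2%. The E2F words can overlap each other on the 2 strands, and TTTAAA is its own reverse complement. Such matches are letters in a window and were not tested as binding sites. The 160 bases before the start are shown for 2 licensing genes and 4 mitotic genes, with every match to the 3 motifs in capitals. These 6 were chosen after the matches had been seen, so they are examples and not a sample of the lists.
Mcm5 (chr8:75109349-75109508, plus strand): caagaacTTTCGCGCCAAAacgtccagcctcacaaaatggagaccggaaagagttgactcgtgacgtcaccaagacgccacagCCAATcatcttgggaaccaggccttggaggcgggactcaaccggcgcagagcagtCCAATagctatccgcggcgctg
Mcm6 (chr1:128359706-128359865, minus strand): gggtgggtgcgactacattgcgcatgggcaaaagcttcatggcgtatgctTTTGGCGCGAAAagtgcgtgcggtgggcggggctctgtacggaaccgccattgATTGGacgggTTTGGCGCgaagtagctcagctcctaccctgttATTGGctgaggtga
Cdk1 (chr10:69352913-69353072, minus strand): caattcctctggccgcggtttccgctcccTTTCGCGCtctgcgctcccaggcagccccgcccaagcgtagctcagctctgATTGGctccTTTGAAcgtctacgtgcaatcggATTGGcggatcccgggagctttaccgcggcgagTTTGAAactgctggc
Top2a (chr11:99024190-99024349, minus strand): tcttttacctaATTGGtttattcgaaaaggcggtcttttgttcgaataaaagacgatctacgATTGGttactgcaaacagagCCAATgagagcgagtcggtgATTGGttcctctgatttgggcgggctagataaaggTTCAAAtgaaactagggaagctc
Smc2 (chr4:52439061-52439220, plus strand): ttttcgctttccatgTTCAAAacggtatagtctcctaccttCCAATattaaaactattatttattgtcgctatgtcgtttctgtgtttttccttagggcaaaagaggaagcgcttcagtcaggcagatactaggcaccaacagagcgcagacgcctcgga
Mki67 (chr7:135716380-135716539, minus strand): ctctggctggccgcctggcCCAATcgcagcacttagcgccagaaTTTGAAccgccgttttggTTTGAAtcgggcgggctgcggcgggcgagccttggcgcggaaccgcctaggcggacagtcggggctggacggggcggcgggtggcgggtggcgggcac
Mcm5 and Mcm6, subunits of the MCM helicase, both showed an E2F core whose reverse strand reads as a second, overlapping core. Top2a, Smc2 and Mki67 held CHR words and CCAAT boxes but no E2F core in this window, and Cdk1 held all 3 motifs. The shares above were counted in the longer window, where Mcm5 also held a CHR word farther upstream, and so all 3 motifs as well.

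**Figure D1:**
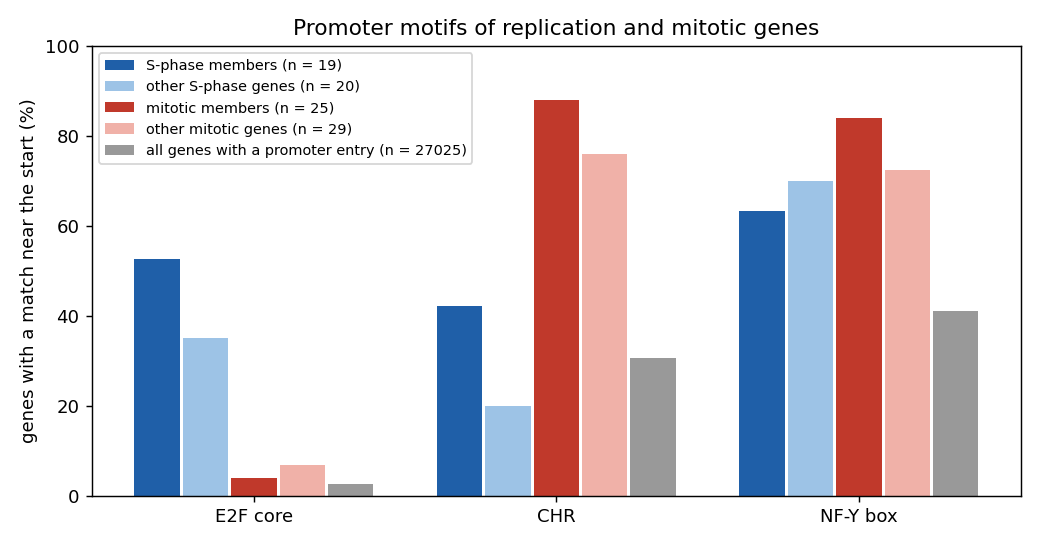
Share of genes (y axis, percent) with at least 1 match to the E2F core, the CHR or the NF-Y box (CCAAT) in the window of 250 bases before to 50 after an annotated start, for the member lists, 2 further lists of S-phase and mitotic genes, and all 27025 genes with a promoter entry. The E2F core bar is tallest for the S-phase members (52.6%) and the CHR bar for the mitotic members (88%); the bars are shares without an error.

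Levels are given as normalized CPM, the count of a gene relative to its library's total after scaling with TMM (trimmed mean of M-values), and genotype differences as the log2 fold change of knockout over control from edgeR's quasi-likelihood test, with its standard error (SE) and a Benjamini-Hochberg adjusted p over all 13439 genes tested. The call required both an adjusted p no larger than 0.05 and a shift of 0.5 or more on the log2 scale, up or down. The libraries held 13037832 to 14380240 counts, of which the 50 most abundant genes took 76.4 to 88.1%, and 3 counts, taken as the limit of detection, were worth 0.172 to 0.352 normalized CPM. Knockout 3 stood apart: it had counts for 19662 genes against 22623 to 26074 in the other libraries, and 9.66% of the tested genes had at most 3 counts there against 0.387 to 2.17% elsewhere. Of the members, Mcm3, Cdc45, Ccnb1, Aurka, Bub1 and Ect2 had at most 3 counts in knockout 3, so results are also given without it. Kmt2a had 719, 469, 268 and 284 counts in the controls and 523, 447, 328 and 468 in the knockouts (log2 fold change -0.06, SE 0.24, edgeR adjusted p 0.995). That count is a sum over every exon, the deleted part included, and is therefore no check of the genotype labels. An identical animal number stands in the titles of knockout 4 and control 4 with different genotypes, so either 2 animals share a number or a label is wrong, which these counts do not settle; the list medians are therefore also given without each of them. The labelled cell type was checked by its markers, and all 12 Paneth markers fixed for this purpose were tested. Lyz1, Mmp7, the alpha-defensins and the rest summed to 281039, 430527, 565296 and 544862 normalized CPM in controls 1 to 4. In knockouts 1 to 4 they summed to 286299, 265914, 793763 and 348271, highest in knockout 3. Defa24 alone averaged 315381 of a mean sum of 455431 in the controls, so the sum mostly reads 1 gene.

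No S-phase gene and no mitotic gene was called between the genotypes with all 8 libraries, where 0.186% of all tested genes (25) were called. The direction of the estimates was nonetheless lopsided: 21 of the 23 S-phase genes and 29 of the 30 mitotic genes that passed the filter had a higher estimate in the knockouts, against 50.9% of all tested genes. The median log2 fold change was 0.47 over the S-phase genes, 0.69 over the mitotic genes and 0.01 over all genes; the difference between the 2 lists was not tested. Without control 4 the medians were 0.34 and 0.60, and without knockout 4 they were 0.43 and 0.73, again with 0 members called. Over all 8 libraries left out in turn they ranged from 0.34 to 0.71 (S-phase) and from 0.52 to 0.92 (mitotic), both highest without control 1. The genes share their 8 libraries, so these are not counts of independent results. At an unadjusted p under 0.05, 3 S-phase genes (Mcm6, Cdc6 and Rrm2) and 9 mitotic genes (Ccna2, Cdk1, Birc5, Bub1b, Kif23, Racgap1, Anln, Cenpf and Smc2) were higher and none lower, where 4.35% of all tested genes were higher at that limit. The smallest adjusted p was 0.581 (Rrm2) among the S-phase genes and 0.324 (Smc2) among the mitotic genes.

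**Figure D2:**
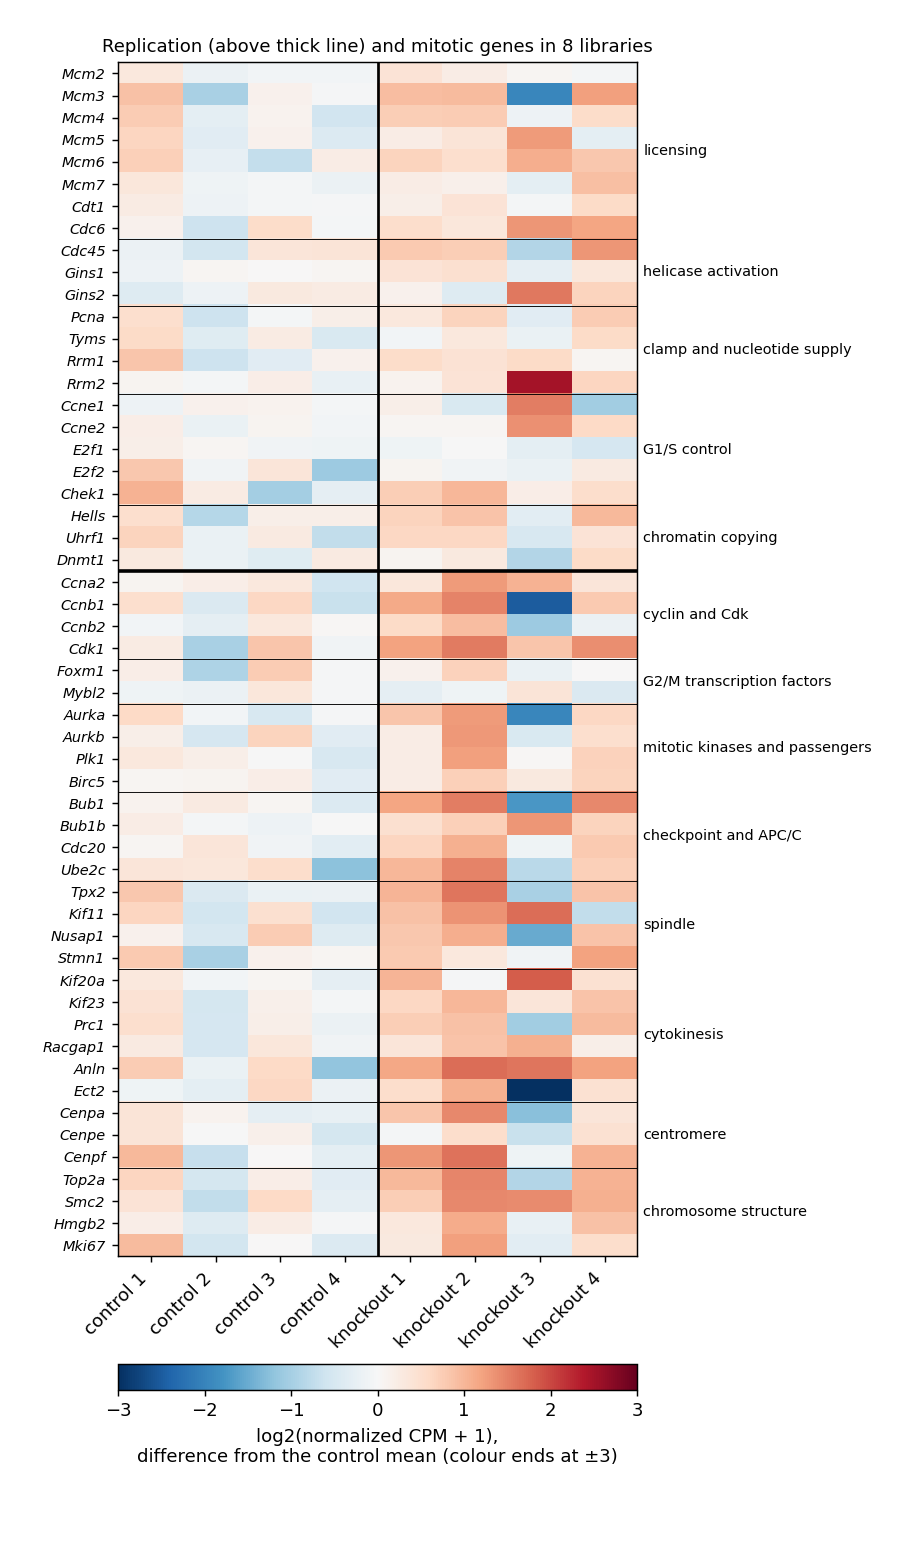
Each of the 54 genes (rows, grouped by role) in each of the 8 libraries (columns), as log2(normalized CPM + 1) minus the mean of the 4 controls, red for higher and blue for lower. Knockouts 1, 2 and 4 are mostly red in the mitotic block, control 2 is mostly blue in both blocks, and knockout 3 mixes the deepest red (Rrm2) with the deepest blue (Ect2, which lies past the end of the scale).

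The genes that license origins were read first. Mcm2 to Mcm7 form the helicase ring, and Cdc6 and Cdt1 load it. All 8 had a higher estimate in the knockouts, with a median of 0.48 and none called. Their summed level was 78.8, 40.0, 47.2 and 46.0 normalized CPM in controls 1 to 4 and 76.0, 73.6, 74.0 and 79.8 in knockouts 1 to 4. Control 1 thus lay among the knockouts and the other 3 controls below them. Mcm6, the most abundant of them per kb of exon (3.69 normalized CPM per kb over all libraries), stood at 20.4, 10.1, 7.0 and 14.3 in the controls and 19.8, 17.6, 26.8 and 21.9 in the knockouts (log2 fold change 0.73, SE 0.30, edgeR adjusted p 0.664). Its genotypes overlapped through control 1 alone. Cdc6, at 1.50, 0.476, 2.33 and 1.18 in the controls and 2.26, 1.89, 4.70 and 4.19 in the knockouts, had a log2 fold change of 1.23 (SE 0.51, edgeR adjusted p 0.667). The 2 groups of Cdc6 overlapped through control 3, and the gene was near the limit of detection in control 2. Mcm4 (0.47), Mcm5 (0.49), Mcm3 (0.67), Cdt1 (0.37), Mcm7 (0.34) and Mcm2 (0.17) had smaller estimates. That of Mcm5 rested on knockout 3, where it stood at 16.8 normalized CPM (controls 4.50 to 10.4, knockouts 1, 2 and 4 from 4.97 to 8.56), and was 0.07 without it. Mcm3 had 1 count in knockout 3 and 7.25, 7.29 and 9.10 normalized CPM in the other knockouts, against 1.19 to 6.96 in the controls.

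Helicase activation was covered by Cdc45, Gins1 and Gins2, whose summed level was 12.2 to 15.9 normalized CPM in the controls and 16.9 to 22.2 in the knockouts, without overlap. None of the 3 genes separated the genotypes alone, and in knockout 3 the sum of 16.9 held 7.52 from Gins2 while Cdc45 and Gins1 were both below every control. Gins1, the most abundant S-phase gene per kb of exon (8.32 normalized CPM per kb), stood at 10.2, 11.8, 11.5 and 11.9 in the controls and 15.4, 16.3, 9.28 and 14.6 in the knockouts (log2 fold change 0.30, SE 0.22, edgeR adjusted p 0.897). Knockouts 1, 2 and 4 were above every control and knockout 3 below every control. Cdc45 was low throughout, at 0.815, 0.397, 1.62 and 1.66 in the controls and 2.55, 2.41, 0.117 and 4.12 in the knockouts (log2 fold change 1.07, SE 0.73, edgeR adjusted p 0.887), with the same library order for knockout 3. Gins2 (0.89, and 0.26 without knockout 3) shared 67.3% of its exon bases with Gse1 on the opposite strand, and since the strand setting of the counting is not given in the sources used here, its reads cannot be assigned to it with certainty.

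Among the genes of the sliding clamp and of nucleotide supply, Pcna, the clamp that holds the polymerase on DNA, stood at 22.3, 9.52, 14.5 and 17.4 normalized CPM in the controls and 19.2, 25, 11.9 and 26.7 in the knockouts. The groups overlapped widely (log2 fold change 0.38, SE 0.30, edgeR adjusted p 0.913). Rows for 2 Pcna pseudogenes also held counts, 1275 in all libraries for Pcna-ps2, so some Pcna reads may have been split. Rrm2, the small subunit of ribonucleotide reductase, had the largest estimate of the S-phase genes (log2 fold change 1.39, SE 0.51, edgeR adjusted p 0.581), but it came from 33.1 normalized CPM in knockout 3. The remaining knockouts held 5.46, 6.95 and 8.43 and the controls 5.39, 4.76, 5.92 and 4.18. Without knockout 3 its log2 fold change was 0.45. Rrm1, the large subunit (0.33), and Tyms, the thymidylate synthase (0.14), differed less.

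The estimates for the regulators of S-phase entry had both signs. E2f1, the activator of the programme, had a lower estimate in the knockouts (log2 fold change -0.52, SE 0.48, edgeR adjusted p 0.928), with 0.789 to 1.19 normalized CPM in the controls and 0.364 to 0.919 in the knockouts. E2f2 was at -0.18, its 4 controls spread from 0.947 to 6.27. Cyclin E, the partner of Cdk2 at the G1/S border, is made from Ccne1 (0.50) and Ccne2 (0.75; 17.4% of its exon bases lie in Ints8 on the other strand), each highest in knockout 3, and without that library Ccne1 was at -0.59 and Ccne2 at 0.32. Chek1, the kinase that guards stalled forks, was at 0.55. Hells (0.58), Uhrf1 (0.31) and Dnmt1 (0.09), which carry DNA methylation onto the new strand, were lower in knockout 3 than in every other knockout.

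Mitotic entry is driven by Cdk1 with cyclins A and B. Cdk1 (chr10:69335146-69352938) stood at 9.34, 3.49, 14.5 and 7.18 normalized CPM in the controls and 19.1, 24.9, 14.6 and 22.0 in the knockouts. All 4 knockouts were above all 4 controls, with knockout 3 above control 3 only just. The log2 fold change was 1.23 (SE 0.36, edgeR adjusted p 0.390; exact two-sided permutation test over the 8 libraries, p = 0.0286, the smallest 4 against 4 can give). Ccna2 (chr3:36564865-36572150), cyclin A2, stood at 10.7, 11.8, 12.8 and 6.31 in the controls and 13.1, 26.0, 21.7 and 13.2 in the knockouts (log2 fold change 0.83, SE 0.29, edgeR adjusted p 0.537). Its groups touched without overlapping, and 12.5% of its exon bases lie in Exosc9 on the other strand. Ccnb2, cyclin B2, was among the 3 most abundant mitotic genes per kb of exon (6.48 normalized CPM per kb) and overlapped, at 8.40, 7.22, 11.3 and 9.23 in the controls and 13.8, 18.0, 3.64 and 7.76 in the knockouts (0.27). Ccnb1, cyclin B1, had 0 counts in knockout 3, which allows up to 0.352 normalized CPM by counting error alone, but 11.5, 14.8 and 8.67 in the other knockouts against 6.96, 3.17, 7.63 and 2.53 in the controls (log2 fold change 0.80, SE 0.79). The 3 knockouts with counts were all above the controls.

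Both transcription factors of the G2/M wave were scarce. Foxm1 was at 0.317 to 3.23 normalized CPM in the controls and 1.17 to 3.04 in the knockouts (log2 fold change 0.14, SE 0.59). Mybl2, which encodes B-Myb, was the only tested mitotic gene with a lower estimate in the knockouts (-0.24, SE 0.54), at 0.714 to 1.44 against 0.425 to 1.53. Each stood under 2 normalized CPM in most libraries, and neither difference exceeded its standard error.

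The mitotic kinases Aurka (0.69), Aurkb (0.56) and Plk1 (0.76) all overlapped between the genotypes. Aurka had 0 counts in knockout 3 and stood at 6.00, 8.50 and 5.03 normalized CPM in the other knockouts, against 4.89, 2.70, 1.79 and 2.84 in the controls. Birc5 (chr11:117849251-117855743), survivin, a subunit of the chromosomal passenger complex with Aurora B, was the steadiest of the group, at 13.2, 13.5, 14.5 and 9.71 in the controls and 14.9, 21.2, 15.6 and 20.6 in the knockouts. Its groups did not overlap, though knockout 1 exceeded control 3 only slightly (log2 fold change 0.51, SE 0.21, edgeR adjusted p 0.662).

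The spindle checkpoint holds the anaphase-promoting complex (APC/C) back until every kinetochore is attached. Bub1b (chr2:118598211-118641591), the checkpoint protein BubR1, stood at 4.45, 3.49, 3.23 and 3.63 normalized CPM in the controls and 5.52, 6.66, 10.7 and 6.43 in the knockouts. Every knockout was above every control, knockout 3 most of all (log2 fold change 0.97, SE 0.29, edgeR adjusted p 0.402). Bub1, the kinase that recruits it, had the opposite reading in knockout 3, where 1 count was found, and stood at 7.54, 9.76 and 9.16 in the other knockouts against 3.01, 3.49, 2.87 and 1.82 in the controls. The spread made its estimate of 1.26 imprecise (SE 0.69, edgeR adjusted p 0.817). Ube2c, the ubiquitin-conjugating enzyme of the APC/C, was the most abundant mitotic gene per kb of exon (9.11 normalized CPM per kb), at 21.1, 21.0, 24.0 and 6.39 in the controls and 33.3, 47.5, 8.81 and 27.4 in the knockouts (0.70). It overlapped through knockout 3, and 22.8% of its exon bases are shared with Tnnc2. Cdc20, which activates the APC/C, was at 0.94.

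Of the spindle genes, the kinesin Kif11 (1.00), the microtubule factors Tpx2 (0.98) and Nusap1 (0.57), and Stmn1 (0.57), a tubulin-binding protein not restricted to mitosis, all overlapped. Among the genes of cytokinesis, Anln (chr9:22332012-22389188), anillin, the scaffold of the contractile ring, had the largest estimate of all the mitotic genes (log2 fold change 1.48, SE 0.49, edgeR adjusted p 0.484). It stood at 5.27, 2.22, 4.58 and 0.631 normalized CPM in the controls and 7.19, 10.7, 10.2 and 7.52 in the knockouts, without overlap. The central-spindle genes Kif23 (0.77), Racgap1 (0.68) and Prc1 (0.65; 11.1% of its exon bases lie in Rccd1 on the other strand) overlapped, as did Ect2 (0.33), the activator of RhoA at the cleavage furrow. Ect2 had 0 counts in knockout 3 and 7.33, 6.43, 13 and 7.02 in the controls, against 12.1, 18.1 and 11.5 in the other knockouts. Control 3 was thus inside the range of those knockouts. Kif20a, a further kinesin of the central spindle that shares 33.2% of its exon bases with Cdc23 on the other strand, did not pass the filter, with 0.0789 to 0.627 in the controls and 0.287 to 3.64 in the knockouts.

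Centromere proteins were led by Cenpf (1.03), followed by Cenpa (0.67), the histone H3 variant of the centromere, and Cenpe (0.11), and all 3 overlapped. The last group shapes the chromosomes. Smc2 (chr4:52439243-52488260), a core subunit of condensin, stood at 16.7, 6.98, 19.0 and 10.1 normalized CPM in the controls and 21.0, 34.9, 34.8 and 27.0 in the knockouts, without overlap (log2 fold change 1.15, SE 0.30, edgeR adjusted p 0.324). Top2a (chr11:98992943-99024189), the topoisomerase that untangles sister chromatids, stood at 54.0, 23.3, 39.2 and 26.7 in the controls and 67.1, 94.7, 18.0 and 71.1 in the knockouts (log2 fold change 0.81, SE 0.42, edgeR adjusted p 0.788). For Top2a, 3 knockouts were above all controls and knockout 3 was below them all. Mki67, which encodes the proliferation marker Ki-67, was less separated, at 41.9, 14.3, 21.6 and 15.8 in the controls and 26.4, 51.7, 16.9 and 31.4 in the knockouts (log2 fold change 0.44, SE 0.38, edgeR adjusted p 0.918), with control 1 above 3 of the 4 knockouts. Hmgb2, a chromatin protein that peaks in G2 and M and the second most abundant mitotic gene per kb of exon (7.18 normalized CPM per kb), stood at 19.6, 12.6, 19.7 and 16.3 in the controls and 21.0, 37.7, 14.2 and 31.6 in the knockouts (0.62), overlapping through knockout 3.

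**Figure D3:**
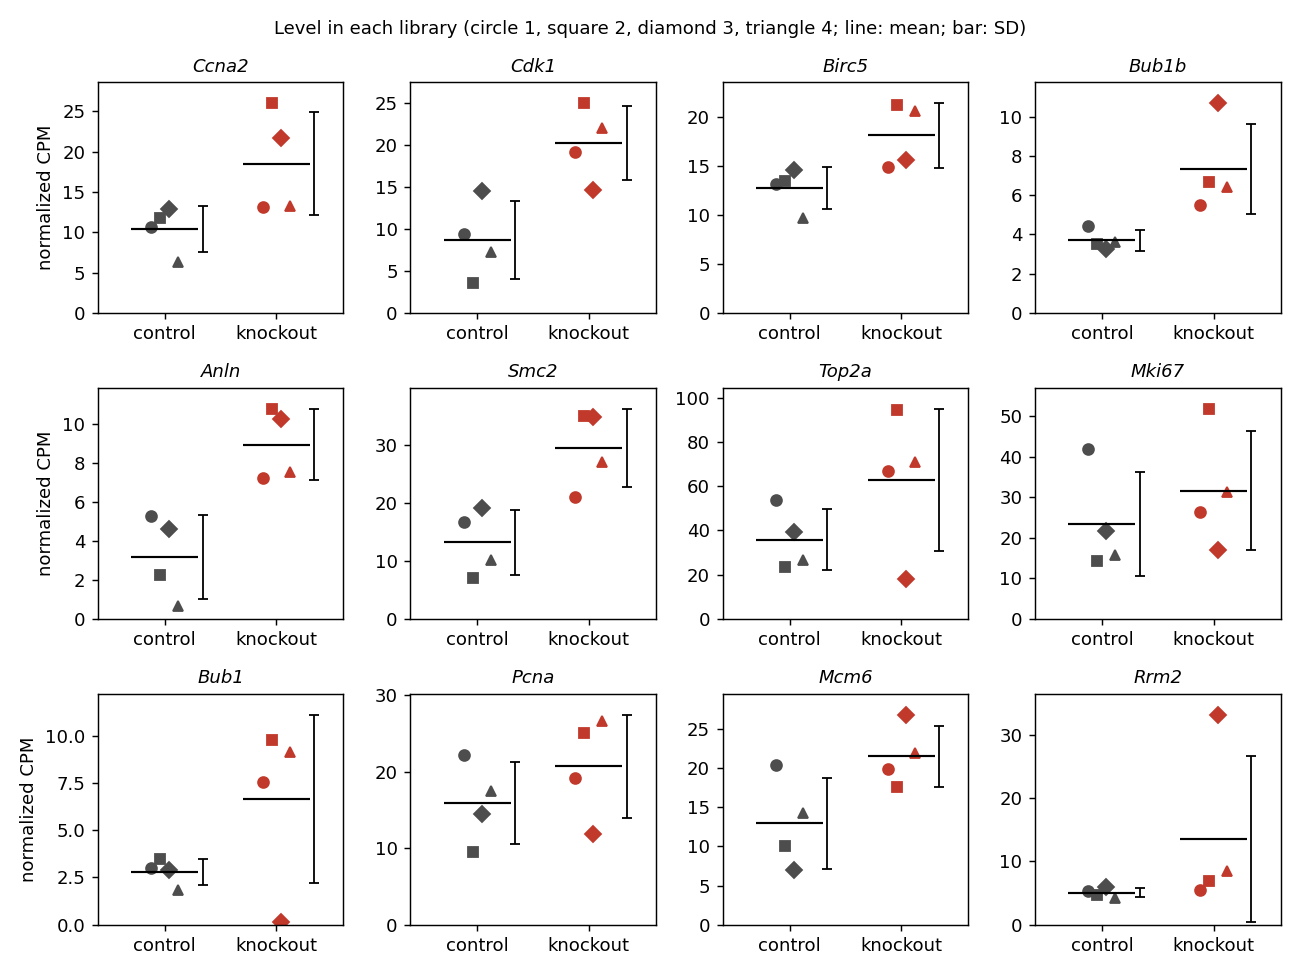
Level (y axis, normalized CPM) of 12 genes in the 4 controls (grey) and 4 knockouts (red), with symbols giving the replicate number, a line for the mean and a bar for the SD. In the first 6 panels, Ccna2 to Smc2, all knockouts lie above all controls; the diamond of knockout 3 is the lowest point for Top2a and Bub1 and by far the highest for Rrm2.

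In all, 6 of the 30 tested mitotic genes (Ccna2, Cdk1, Birc5, Bub1b, Anln and Smc2) and 0 of the 23 S-phase genes had every knockout above every control, where 2.59% of all tested genes did. No member had every knockout below every control, where 1.93% of all tested genes did. The exact permutation test gave each of the 6 the p of 0.0286, which is the smallest 4 against 4 libraries can give and does not pass an adjustment over all genes. Library by library, 24, 27, 10 and 22 of the 31 mitotic genes in knockouts 1 to 4 exceeded the highest control, and 6, 7, 7 and 14 of the 23 S-phase genes; of all tested genes 20.4, 21.2, 31.5 and 23.0% did.

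The summed level over all members of a list gave the same picture in fewer numbers. The S-phase genes summed to 217, 116, 146 and 142 normalized CPM in the controls (155 ± 43.3, SD, n = 4) and 204, 215, 205 and 230 in the knockouts (214 ± 12.2, SD, n = 4), a ratio of 1.38. Control 1 reached the level of the knockouts. The mitotic genes summed to 343, 195, 307 and 190 in the controls (259 ± 78.0, SD, n = 4) and 414, 610, 257 and 431 in the knockouts (428 ± 144, SD, n = 4), a ratio of 1.65. Knockout 3 lay within the controls and the other 3 knockouts above them. The mitotic sum over the S-phase sum was 1.58, 1.69, 2.10 and 1.34 in the controls and 2.03, 2.83, 1.25 and 1.87 in the knockouts, so that this ratio overlapped as well. Libraries 1 and 2 of each genotype and libraries 3 and 4 come from 2 runs of sample numbers in the labels; within the first the ratios were 1.26 (S-phase) and 1.90 (mitotic), and within the second 1.51 and 1.39.

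**Figure D4:**
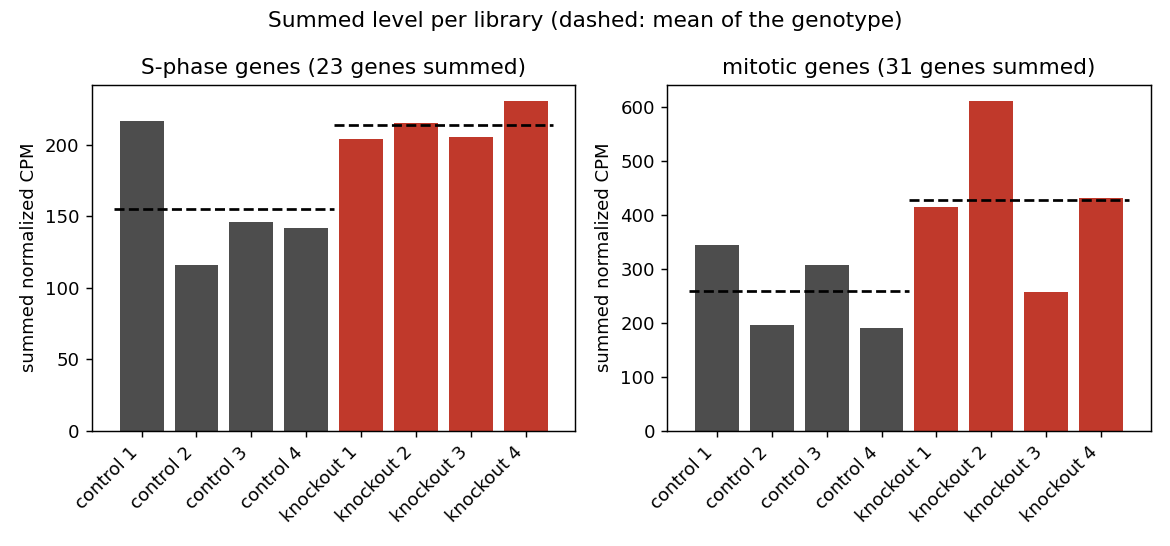
Summed normalized CPM (y axis) of the 23 S-phase genes (left) and the 31 mitotic genes (right) in each library, controls in grey and knockouts in red, with the mean of each genotype dashed. Control 1 reaches the S-phase level of the knockouts (217 against 204 to 230), and knockout 3 falls within the controls for the mitotic genes (257 against 190 to 343).

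The same comparison was made without knockout 3. With 4 controls against 3 knockouts, 152 of 14086 genes were called (1.08%), Bub1 among them (log2 fold change 1.65, SE 0.27, edgeR adjusted p 0.0127), and no other member. The median was 0.89 over the mitotic genes, 0.45 over the S-phase genes and -0.01 over all genes. At an unadjusted p under 0.05, 21 of the 30 mitotic genes and 5 of the 23 S-phase genes (Mcm3, Cdc45, Gins1, Pcna and Hells) were higher, where 6.48% of all tested genes were. Every remaining knockout was above every control for 18 mitotic and 4 S-phase genes, where 6.59% of all tested genes behaved so. Top2a was next to the threshold (log2 fold change 1.11, SE 0.26, edgeR adjusted p 0.0721). Further estimates that moved by over 1.5 times were those of Mcm3 (1.05), Uhrf1 (0.52), Dnmt1 (0.32), Tyms (0.25), Aurka (1.07), Nusap1 (0.90), Ect2 (0.72), Ccnb2 (0.54), Cenpe (0.30) and Foxm1 (0.29), all higher than with knockout 3, and those of Mybl2 (-0.66) and E2f2 (-0.10). Knockout 3 was singled out by its depth of detection, given above, and by the members with at most 3 counts in it. The choice to lead with its omission here was made with the values of these genes known.

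**Figure D5:**
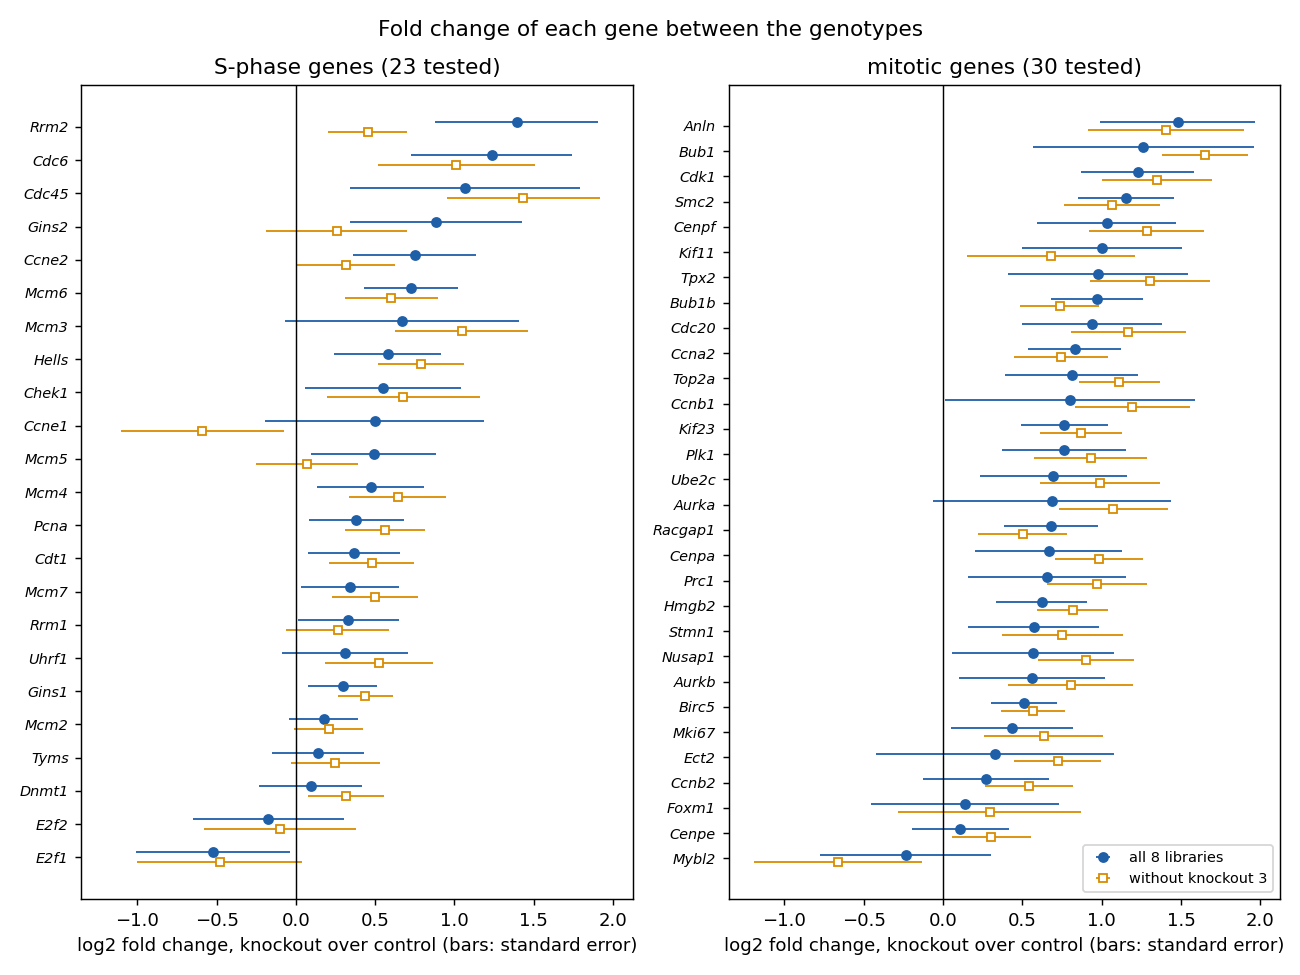
Log2 fold change of knockout over control (x axis) with its standard error for each tested S-phase gene (left) and mitotic gene (right), with all 8 libraries (filled circles) and without knockout 3 (open squares), ordered by the first. The circles of 50 of the 53 genes lie to the right of 0; the standard errors of Bub1, Aurka, Ccnb1 and Ect2 shrink without knockout 3, and Rrm2, Gins2 and Ccne1 move toward or past 0.

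Calls depended on the test as well. A DESeq2 Wald test called 1.03% of the 13439 genes and, of the members, Smc2 alone (log2 fold change 1.16, DESeq2 adjusted p 0.0458). With no filter on low counts, edgeR called 0.783% of 37039 genes, among them Rrm2, Cdk1, Anln, Cenpf and Smc2, all higher in the knockouts.

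Further genes of both programmes were counted in the same way. Of 28 tested S-phase genes outside the members, 22 had a higher and 6 a lower estimate, with a median of 0.35; 8 were higher at an unadjusted p under 0.05, Tipin (0.98) with the smallest p, against 4.35% of all tested genes, and none was called. Of 34 mitotic genes outside the members, 29 had a higher and 5 a lower estimate, with a median of 0.50; 4 were higher at that limit, namely Gtse1 (2.44), Ndc80 (1.89), Cks2 (0.89) and Ttk (0.90), and none was called. Every knockout was above every control for 4 of the 28 S-phase genes (14.3%) and for 1 of the 34 mitotic genes (2.94%, Gtse1), against 2.59% of all tested genes. Without knockout 3, 8 of the S-phase genes (28.6%) and 13 of the mitotic genes (38.2%) were higher at an unadjusted p under 0.05, against 6.48% of all tested genes in that comparison. Every knockout was then above every control for 5 (17.9%) and 9 (26.5%), against 6.59%, and Cks1b alone was called (log2 fold change 1.2, SE 0.22, edgeR adjusted p 0.0230), against 1.08%.

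Markers of other cells of the tissue were read in the same libraries. The 13 intestinal stem cell markers had a median log2 fold change of -0.11, with 4 higher and 9 lower, and summed to 983 to 1860 normalized CPM in the controls and 525 to 1276 in the knockouts. Axin2, Igfbp4 and Tnfrsf19 were higher and Olfm4, Ascl2 and Slc12a2 lower at an unadjusted p under 0.05. Of the 13439 tested genes 584 were higher and 340 lower at that limit. Lgr5 itself averaged 47.3 in the controls and 48.8 in the knockouts. Without knockout 3 the stem cell median was -0.09, again with 4 higher and 9 lower. In that comparison 3 of the 13 markers were higher (23.1%, against 6.48% of all tested genes) and 2 lower at an unadjusted p under 0.05. Of all 14086 genes tested there, 683 were lower at that limit. Every knockout was above every control for 3 markers (23.1%, against 6.59%) and below for 1, where 658 of all genes were below. Tnfrsf19 (1.6) and Igfbp4 (1.11) were called, against 1.08% of all tested genes. All 10 enteroendocrine markers had a lower estimate (median -1.90; sums of 223 to 833 against 45.4 to 216), as did all 7 tested tuft cell markers (-0.88) and 6 of 7 enterocyte markers (-0.72). With all libraries 7 enteroendocrine, 3 enterocyte and 0 tuft cell markers were lower at an unadjusted p under 0.05. Every knockout was below every control for 3, 2 and 0 of them, against 1.93% of all tested genes. None was called, and Neurod1 came closest (log2 fold change -2.27, edgeR adjusted p 0.0629). The 10 goblet cell markers had a median of 0.13 with all libraries, with 6 higher and 4 lower, and of -0.29 without knockout 3, with 1 higher and 9 lower. Of 10 immune markers, 2 passed the filter; the sort took EpCAM+ cells and the stain included a CD45 antibody, a marker of immune cells, though its gate is not described in the sources used here. Paneth markers had a median of -0.10, and of -0.60 without knockout 3, where 11 of 12 had a lower estimate. The part of any of these cells, or of the depth of knockout 3, in the values of the cell cycle genes was not tested.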

How the data were processed

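Paneth cells of 8 mice were sequenced by Smart-seq2, which primes on poly(A), amplifies by PCR and has no molecular identifiers. The limits of detection cover counting error only, while the standard errors include the spread between libraries. The study's methods describe a small set of sorted cells per tube, a source of spread that the limits of detection do not cover. The deposited values are raw counts per gene: the authors aligned reads to mm10 with GSNAP and counted uniquely mapped reads with featureCounts 1.6.3 on Ensembl genes, without normalization. The submitters' processing notes also name bcl2fastq 2.19.1. The strand setting is not given in the sources used here.

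The 92 spike-in rows were left out (at most 7 counts in any of them). In R 4.3.3, genes were filtered with filterByExpr (at least 10 counts, 15 in total), scaled by TMM and tested with edgeR 4.0.16 (quasi-likelihood, robust, no covariate, 4 against 4), with Benjamini-Hochberg adjustment over the 13439 genes tested; the common biological coefficient of variation was 0.376. DESeq2 1.42.0 and limma 3.58.1 (voom) served as alternatives, beside other scalings, filters and thresholds, a block for the 2 runs of label numbers, and leaving out each library. The scripts were tested on simulated counts. Gene positions and shared exon bases were read from the exon coordinates deposited with the counts, on mm10 (GRCm38). Gene symbols came from a separate gene reference, and promoters are from RefSeq.

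The 54 members, the further lists and the tests were chosen with earlier results of these data known. Values per library were given for Mki67, Top2a, Pcna and Cdk1, for the 3 genes of each list with the largest fold change and the 3 with the highest level per kb, for genes whose genotypes did not overlap, and for the genes with the most libraries at 0. Those of Mcm3, beyond that rule, were added to show knockout 3. Replicates are separate libraries per the labels, where an identical animal number stands in the titles of knockout 4 and control 4, so p-values measure the spread between libraries.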

Additional observations from a re-analysis of the deposited data

Results flagged for a closer look

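In each genotype the 4 libraries of each gene, and of the summed lists, were searched for a highest or lowest library whose gap to the nearest other, divided by the whole range, exceeded Dixon's 95% critical value of 0.829. Of 112 groups 5 did, where chance gives about 6. Among the controls these were Mcm2 (0.845), with control 1 at 12 normalized CPM and the others at 8.25 to 8.84, Ube2c (0.833), with control 4 at 6.39 and the others at 21.0 to 24.0, Tpx2 (0.848), with control 1 at 6.08 and the others at 1.98 to 2.60, and Ect2 (0.862), with control 3 at 13 and the others at 6.43 to 7.33. Among the knockouts it was Rrm2 (0.893), with knockout 3 at 33.1 and the others at 5.46 to 8.43.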

How the results depend on the processing

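The number of genes called over the whole table, 25, was 290 with no filter on low counts, 13 with at least 10 counts required in every library, 138 with DESeq2, 95 with voom and 38 at 10% FDR. With a library left out it ranged from 10 to 152: 11, 12, 10 and 15 without controls 1 to 4, 11 without knockout 2 and 152 without knockout 3. The count of called S-phase genes, 0, was 1 with no filter, and that of mitotic genes, 0, was 4 with no filter, 1 with DESeq2 and from 0 to 1 with a library left out (1 without knockout 3). Both medians stayed positive in every alternative. The ratio of the S-phase sums, 1.38, ranged from 1.27 to 1.59 with a library left out, the highest without control 1; that of the mitotic sums, 1.65, ranged from 1.42 to 1.87.

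Of the estimates for single members under the alternatives, 864 kept their direction and side of the threshold, 7 gained a call and 16 changed sign. With a library left out, the log2 fold changes of 9 genes crossed 0, from -0.49 to 0.25 for E2f2 (highest without control 1), -0.66 to 0.034 for Mybl2 (highest without control 3), -0.59 to 0.87 for Ccne1 (lowest without knockout 3), -0.21 to 0.62 for Foxm1 (below 0 without control 2 or knockout 2), -0.12 to 0.32 for Dnmt1 (without control 3 or knockout 4), -0.034 to 0.38 for Tyms (without control 4 or knockout 4), -0.057 to 0.30 for Cenpe (without control 4, knockout 2 or knockout 4), and, without knockout 2, -0.089 to 0.54 for Ccnb2 and -0.068 to 0.72 for Ect2. Under voom Ccne1 was -0.54 and E2f2 0.26. The cause was not tested. Scaling on libraries without the 50 most abundant genes, chosen after seeing the data, gave 25 called genes and no called member. No paired analysis was possible because the replicate numbers are names given in accession order and the labels do not say which littermates belong together. Depth limits the genes that averaged under 2 normalized CPM over the libraries, Foxm1, Mybl2, E2f1, Cdc45 and Kif20a, and, in knockout 3, those with at most 3 counts.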
